A study of Homo sapiens with 6 samples.

Results

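FOS, FOSB, FOSL1, FOSL2, JUN, JUNB, JUND, EGR1, IER2 and IER3 were followed in MDA-MB-231 cells given the histone deacetylase (HDAC) inhibitor PCI-24781. These are 10 of the 16623 genes in the expression tables. They were chosen by name, with earlier results of these data known, and were found by their NCBI Gene IDs. They are the Fos and Jun subunits of the transcription factor AP-1 plus 3 genes that respond early to growth signals. MDA-MB-231 is an established triple-negative breast cancer cell line. RNA was sequenced from adherent cells kept for 24 h or 48 h with 100 nM PCI-24781, 200 nM PCI-24781 or the solvent DMSO, which gives 6 conditions with 1 library each. All 6 were grown in medium with serum, and the labels name no genotype difference between them. Levels are given as FPKM, the fragment number scaled by transcript length and by the total of mapped fragments. Since there was 1 library per condition, no difference below has a replicate check, and no test or p-value is given.

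AP-1 is a pair of proteins joined through leucine zippers. Fos proteins cannot pair with themselves and bind DNA only with a partner such as a Jun protein, whereas Jun proteins can also pair with each other. Many of these genes are immediate early genes, whose transcription starts within minutes of a growth or stress signal without new protein synthesis and then shuts off, through kinase cascades that act on SRF, ELK and CREB proteins at the promoter. FOSL1 and FOSL2 come up later than FOS and FOSB and can stay high in cells with lasting kinase signalling, and FOSL1, which encodes Fra-1, is known for its high level in invasive triple-negative breast cancer cells.

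The promoters of EGR1, JUNB, JUND and JUN are shown because the first 3 genes were higher at 48 h than at 24 h in DMSO, while JUN stayed nearly level. Each sequence is the 250 bases before the RefSeq gene start in GRCh38.p14, read 5′ to 3′ on the strand of the gene. Capitals mark the CRE core TGACG or its reverse complement CGTCA, the full CRE TGACGTCA that contains both, and the CArG box, the site bound by SRF. The EGR1 window is chr5:138465229-138465478 on the plus strand, the JUNB window is chr19:12791236-12791485 on the plus strand, the JUND window is chr19:18281623-18281872 on the minus strand and the JUN window is chr1:58784048-58784297 on the minus strand.
EGR1: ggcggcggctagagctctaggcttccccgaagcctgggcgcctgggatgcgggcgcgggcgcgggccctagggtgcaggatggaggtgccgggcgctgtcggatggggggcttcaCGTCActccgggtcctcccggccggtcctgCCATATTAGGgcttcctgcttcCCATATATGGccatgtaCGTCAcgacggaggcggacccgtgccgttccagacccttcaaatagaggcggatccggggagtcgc
JUNB: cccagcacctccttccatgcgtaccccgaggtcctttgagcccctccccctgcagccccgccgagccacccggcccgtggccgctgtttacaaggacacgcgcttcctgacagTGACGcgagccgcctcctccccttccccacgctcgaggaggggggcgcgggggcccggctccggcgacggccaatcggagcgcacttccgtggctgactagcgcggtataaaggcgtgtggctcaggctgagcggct
JUND: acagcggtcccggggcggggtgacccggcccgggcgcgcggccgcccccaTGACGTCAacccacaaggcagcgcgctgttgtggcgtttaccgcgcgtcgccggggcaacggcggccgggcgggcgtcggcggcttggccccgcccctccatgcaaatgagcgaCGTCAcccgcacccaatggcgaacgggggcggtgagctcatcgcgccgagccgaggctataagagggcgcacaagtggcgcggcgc
JUN: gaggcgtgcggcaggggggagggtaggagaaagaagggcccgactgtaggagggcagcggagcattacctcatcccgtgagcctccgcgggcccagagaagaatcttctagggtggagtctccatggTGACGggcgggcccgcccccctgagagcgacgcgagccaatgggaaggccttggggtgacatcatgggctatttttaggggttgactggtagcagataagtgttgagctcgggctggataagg

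EGR1 held 2 CArG boxes, 105 to 96 and 83 to 74 bases before its start, and 1.17% of 34788 distinct RefSeq promoter windows of this length held at least 1 match. It was the only gene with a CArG match among the 8 that have a window in the table. The FOSL1 and IER3 windows were not in it. Sites more than 250 bases before the start were not searched, so a missing match does not mean that a gene lacks the site. JUND was the only gene of the 8 with a full CRE, 200 to 193 bases before its start, against 1.64% of all windows. The CRE core, which a full CRE also contains, was found in 8 of 8 windows, against 21.2% of all windows. No window of the 8 held the AP-1 site TGANTCA (6.59% of all windows) or the EGR site GCGTGGGCG (0.722%). Only exact matches were counted, so TGACATCA in the JUN window, which differs from the full CRE by 1 letter, was not. A TATAAA box was found in FOS, FOSB and JUNB (10.8% of all windows), and CCAAT was found in JUN, JUNB and JUND (32.0%). Both strands were searched. Such a match is a description of the letters, and no binding was measured.

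The label of the line was checked by its markers. VIM (1629 to 2053 FPKM) and CD44 (154 to 219 FPKM) were high, the epithelial cadherin gene CDH1 was low (0.24 to 0.39 FPKM), and the hormone receptor genes ESR1 (at most 0.04 FPKM) and PGR (at most 0.03 FPKM) were at or near 0. ERBB2, the receptor gene whose amplification triple-negative cells lack, was not near 0, at 13.2 to 21.4 FPKM. Of 4 markers of other cell types, HBB and CD3E were at or near 0 (at most 0.11 FPKM), PTPRC lay between 0.76 and 1.01 FPKM, and PECAM1 lay between 0.38 and 2.33 FPKM. The files hold no counts. From the steps between their lowest values, the depth was inferred to be about 15700000 to 18000000 fragments per library, so that 3 fragments on a 2 kb transcript would equal an FPKM of 0.083 to 0.096. The library labelled 100 nM 48 h went the other way from the other treated libraries. Of 523 genes called higher at 200 nM 24 h, 498 were also above DMSO at 200 nM 48 h, but 441 were below DMSO at 100 nM 48 h. An exchange of labels with another 48 h library cannot be told apart from an effect of dose and time, so values that rest on this library are given with their label and beside those of 200 nM. If the other library were DMSO 48 h, the 200 nM 48 h values and those of DMSO 48 h against 24 h would change too. In whole-culture RNA, fewer cells that express a gene and less RNA per cell cannot be told apart.

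FOSL1 had the highest mean level of the 10 genes, and IER3 came next and was above FOSL1 at 200 nM 48 h. FOS and FOSB were the lowest, below an FPKM of 1 in every library. FOSL1 ranked 124 of 16623 genes by mean FPKM, IER3 ranked 163, JUN 1141, FOSL2 1610, JUND 1611, IER2 2287, JUNB 4068, EGR1 9785, FOS 11861 and FOSB 12787. Neighbours in this order were FOSL2 and JUND, whose ranges overlapped (41.1 to 56.9 and 29.3 to 72.0 FPKM), and JUN, whose range (59.7 to 71.2 FPKM) overlapped that of JUND. FOSL1 and IER3 also overlapped, at 281 to 548 and 207 to 415 FPKM. Between IER2 (32.4 to 39.4 FPKM) and JUNB (10.0 to 26.7 FPKM) there was no overlap, nor between JUNB and EGR1 (0.66 to 4.21 FPKM). The counting interval was narrow for most of the genes, for example ± 1.9% to ± 2.8% for FOSL1, and wide for FOS, at ± 37.6% to ± 58.9%. These are 95% exact Poisson intervals on approximate fragment numbers. They cover counting error only, not the spread between cultures.

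**Figure D1:**
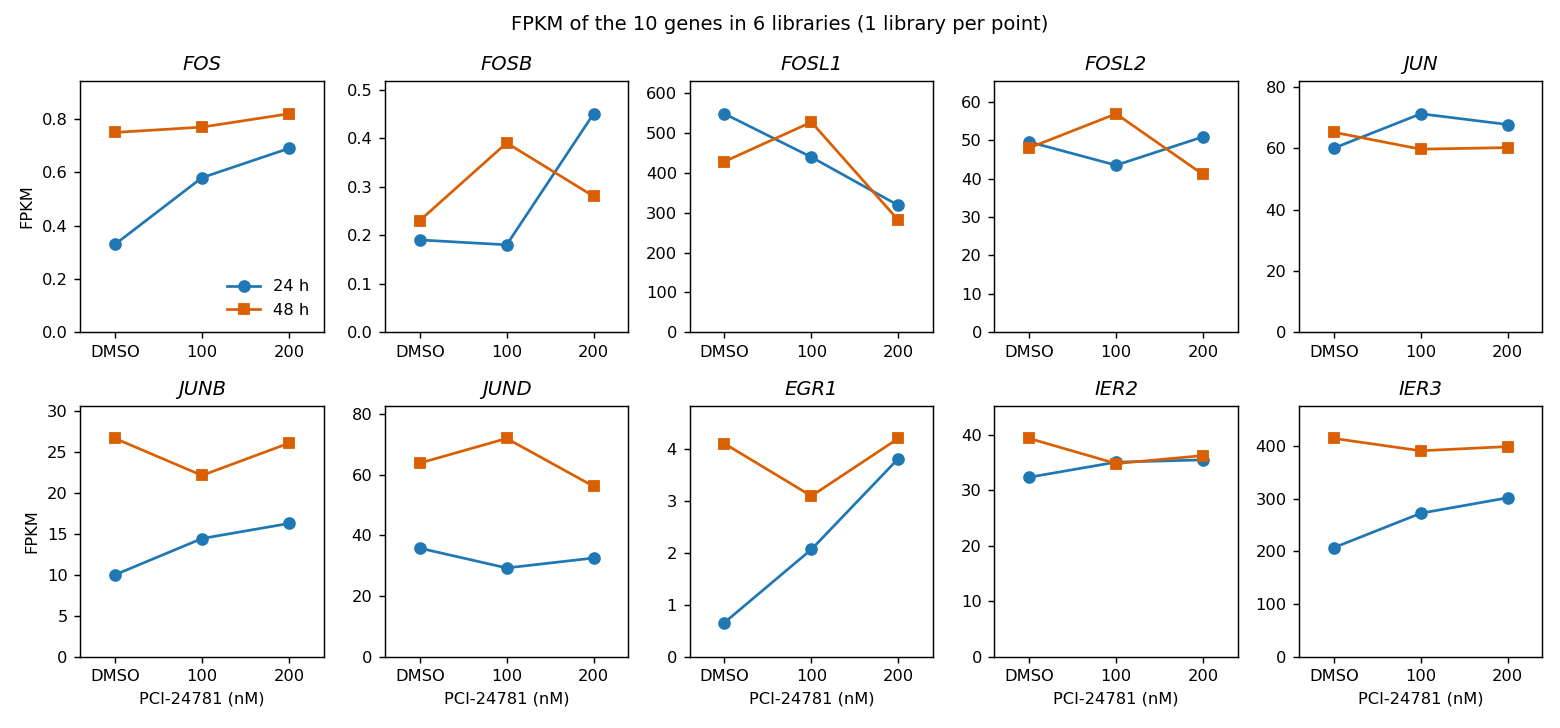
FPKM (vertical axes, each from 0 with its own scale) of the 10 genes against DMSO, 100 nM and 200 nM PCI-24781, at 24 h (circles) and 48 h (squares), with 1 library per point and no error bar because there were no replicates. The 48 h points of FOS, JUNB, JUND and IER3 all lie above the 24 h points, EGR1 climbs from 0.66 to 3.82 FPKM at 24 h, and FOSL1 is lowest at 200 nM at both times.

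The Fos family RNA in these cells was nearly all FOSL1, and FOSL1 was the Fos gene that was below DMSO at 200 nM at both times. Of the Jun genes, JUND was also below DMSO at 200 nM at both times, by less (log2 -0.13 at 24 h and -0.18 at 48 h). FOSL1 (Gene ID 8061, 5 transcripts, chromosome 11, 65659607 to 65667997 in the files, for which the submitters name hg19) stood at 548, 439.6 and 318 FPKM in the DMSO, 100 nM and 200 nM libraries at 24 h. At 48 h it stood at 428, 528 and 281 FPKM. The 2 libraries of 200 nM were the lowest of the 6, and the 100 nM library was below DMSO at 24 h but above it at 48 h. Against DMSO of the same time, the difference in FOSL1 was -41.9% at 200 nM 24 h and -34.3% at 200 nM 48 h, or -0.78 and -0.61 on the scale of log2((FPKM + 1) ratio). At 100 nM the log2 values were -0.32 at 24 h and 0.30 at 48 h. Set against the 100 nM library of the same time instead, the 200 nM value was -0.46 at 24 h and -0.90 at 48 h. Both signs follow from the 200 nM libraries being the lowest of the 6, and the 48 h value rests on the 100 nM 48 h library. No FOSL1 difference reached 2-fold. Of all genes that reached an FPKM of 1 in the pair of libraries compared, 3.29% had a log2 value at or below that of FOSL1 at 200 nM 24 h, and 0.42% did at 200 nM 48 h. A level lowest at 200 nM at both times was found in 22.5% of 11893 genes, so that pattern alone does not set FOSL1 apart.

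FOSL2, which encodes Fra-2, the other late Fos protein, showed no such pattern. FOSL2 (Gene ID 2355, chromosome 2, 28615779 to 28637516) measured 49.5, 43.5 and 50.9 FPKM at 24 h and 48.0, 56.9 and 41.1 FPKM at 48 h. Its log2 values stayed between -0.22 and 0.24, and its 100 nM library was the lowest at 24 h and the highest at 48 h.

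FOS, the founding early Fos gene, and FOSB were detected at low levels. FOS (Gene ID 2353, chromosome 14, 75745481 to 75748937) measured 0.33, 0.58 and 0.69 FPKM at 24 h and 0.75, 0.77 and 0.82 FPKM at 48 h, about 13 to 30 fragments per library. The counting interval at DMSO 24 h (0.178 to 0.572) overlapped that at 200 nM 24 h (0.452 to 1.01), so the intervals do not separate this pair. Overlap is not a test of a difference, and with so few fragments the order of the FOS libraries is uncertain. FOSB (Gene ID 2354, 2 transcripts, chromosome 19, 45971253 to 45978437) measured 0.19, 0.18 and 0.45 FPKM at 24 h and 0.23, 0.39 and 0.28 FPKM at 48 h, about 11 to 29 fragments. FOSB lies within the span of ERCC1 on the opposite strand, with 0 shared exon bases. Neither gene reached an FPKM of 1 in any library, so both stayed out of the calls below.

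The composition of both families was read from these per-length levels. FOSL1 made up 91.6%, 90.9% and 86.0% of the summed Fos family FPKM in the DMSO, 100 nM and 200 nM libraries at 24 h, and 89.7%, 90.1% and 87.0% at 48 h. FOSL2 made up 8.28% to 13.7%, highest at 200 nM at both times. FOS made up 0.06% to 0.25%, and FOSB made up 0.03% to 0.12%. The 200 nM libraries thus had the lowest FOSL1 share at both times. In the Jun family, JUN made up 56.7%, 62.0% and 58.1% at 24 h and 41.9%, 38.8% and 42.3% at 48 h, while JUNB took 9.47% to 14.0% at 24 h and 14.4% to 18.3% at 48 h. JUND took 25.5% to 33.8% at 24 h and 39.4% to 46.8% at 48 h, so the 24 h and 48 h libraries did not overlap for any Jun gene share. The Jun shares of a library are parts of the same whole, so they are not separate results. The level of JUN itself overlapped between the times (60.03 to 71.2 FPKM at 24 h and 59.7 to 65.2 FPKM at 48 h). For JUNB the nearest shares were those of 200 nM 24 h (14.0%) and 100 nM 48 h (14.4%). The counting intervals of its level in these libraries were ± 8.7% and ± 7.3%, so that gap was narrow. Summed Fos FPKM was 5.65, 4.21 and 3.18 times summed Jun FPKM at 24 h and 3.07, 3.81 and 2.27 times at 48 h. These ratios are of RNA and say nothing of the protein dimers formed.

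**Figure D2:**
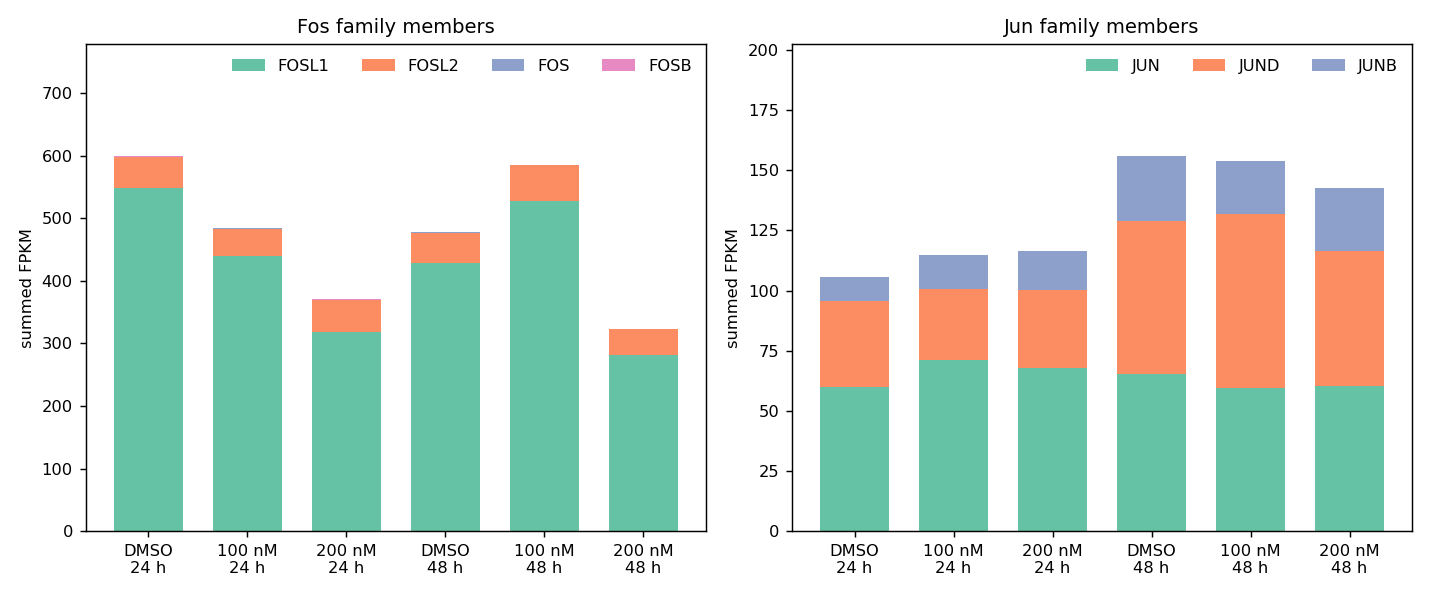
Stacked bars of the summed FPKM (vertical axes from 0) of the 4 Fos family genes (left) and the 3 Jun family genes (right) in each of the 6 libraries. FOSL1 fills 86.0% to 91.6% of each Fos bar, and the JUND and JUNB parts of the Jun bars are taller in the 48 h libraries than in the 24 h libraries.

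Within the Jun family, JUN was level, and JUNB and JUND were higher at 48 h than at 24 h. JUN (Gene ID 3725, chromosome 1, 59246463 to 59249785), the strongest activator of the family, measured 60.03, 71.2 and 67.7 FPKM at 24 h and 65.2, 59.7 and 60.2 FPKM at 48 h. Its highest level was 1.19 times its lowest, and at 24 h its log2 values to DMSO were 0.24 and 0.17, but at 48 h they were -0.13 and -0.11. The 24 h and 48 h libraries overlapped, and the signs differed between the times at both doses.

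JUNB, which often restrains JUN-driven transcription, was lowest in DMSO at 24 h. JUNB (Gene ID 3726, chromosome 19, 12902310 to 12904125) measured 10.0, 14.4 and 16.3 FPKM at 24 h and 26.7, 22.2 and 26.1 FPKM at 48 h. Every 48 h library lay above every 24 h library, and within 24 h the level was higher at each higher dose. The counting intervals at 100 nM 24 h (13.2 to 15.8) and 200 nM 24 h (14.9 to 17.8) overlapped. JUNB was 0.49 (100 nM) and 0.65 (200 nM) above DMSO at 24 h on the log2 scale, and -0.26 and -0.03 at 48 h. It shares 259 exon bases with HOOK2 on the opposite strand, which measured 2.93, 5.04 and 7.28 FPKM at 24 h and 5.42 to 6.15 FPKM at 48 h. Whether the libraries kept strand is not given in the sources used here, so reads of JUNB and HOOK2 may be mixed.

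JUND, the Jun gene that most resting cells express, differed with time and little with dose. JUND (Gene ID 3727, 2 transcripts, chromosome 19, 18390504 to 18392466) measured 35.8, 29.3 and 32.6 FPKM at 24 h and 63.9, 72.0 and 56.2 FPKM at 48 h. The 48 h libraries lay above the 24 h libraries without overlap, by 0.82 in DMSO, 1.27 at 100 nM and 0.77 at 200 nM on the log2 scale. Against DMSO of the same time its log2 values lay between -0.28 and 0.17.

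EGR1 was the only one of the 10 genes called in a comparison with DMSO of the same time. It encodes a zinc finger transcription factor that is switched on by serum and growth factors and binds GC-rich sites, and its corepressors are NAB1 and NAB2. EGR1 (Gene ID 1958, chromosome 5, 137801181 to 137805004) measured 0.66, 2.07 and 3.82 FPKM in DMSO, 100 nM and 200 nM at 24 h, about 37, 113 and 209 fragments. At 48 h it measured 4.11, 3.10 and 4.21 FPKM. The DMSO 24 h library stood apart as the lowest, and the counting intervals of the 3 libraries at 24 h (0.461 to 0.903, 1.71 to 2.49 and 3.33 to 4.38) did not overlap. The FPKM at 200 nM 24 h was 5.79 times that of DMSO 24 h (log2 1.54) and at 100 nM it was 3.14 times (log2 0.89). At 48 h the ratios were 0.75 and 1.02 (log2 -0.32 and 0.03), and the intervals of DMSO (3.60 to 4.69) and 200 nM (3.65 to 4.81) overlapped. The call needs DMSO 24 h, which was under the filter: with an FPKM of 1 required in both libraries, EGR1 was not called. Without the DMSO 24 h library, EGR1 was still higher at 200 nM 24 h than at 100 nM 24 h (log2 0.65), at a level close to the 48 h libraries. PECAM1, an endothelial marker that also occurs in other cells, measured 0.38, 0.64 and 1.25 FPKM at 24 h and 1.52, 1.07 and 2.33 FPKM at 48 h. The 4 markers of other cell types summed to 1.19, 1.47 and 2.30 FPKM at 24 h and to 2.28, 1.84 and 3.44 FPKM at 48 h, so this sum was also lowest at DMSO 24 h. Their part in the EGR1 result was not tested.

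The genes with the profile most like EGR1 were PDGFB, SLC27A1 and GABARAPL1, by the root mean square difference between log2(FPKM + 1) profiles centred over the 6 libraries. It was 0.082 for PDGFB, 0.082 for SLC27A1 and 0.106 for GABARAPL1. PDGFB, which encodes a growth factor chain, measured 1.16, 2.60 and 4.27 FPKM at 24 h and 5.44, 4.04 and 5.53 FPKM at 48 h. Like EGR1 it was lowest in DMSO at 24 h and had its 100 nM library lowest at 48 h. Among the 10 genes, JUNB was the nearest to EGR1, at 0.268. JUNB and IER3 were each nearest to the other, at 0.129, and so were FOS and IER2, at 0.107, and FOSB and FOSL2, at 0.128. JUN was nearest to IER2, at 0.108, JUND to IER3, at 0.296, and FOSL1 to FOSL2, at 0.294. Genes with low or level values are near each other by this measure because they vary little, so the FOS, FOSB and JUN pairs show small ranges rather than a shared pattern.

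Of the immediate early response genes, IER3 had a profile like that of JUNB and IER2 was level. IER3, which encodes a stress-induced protein that acts on cell survival, is at Gene ID 8870 on chromosome 6, 30710976 to 30712327. IER3 measured 207, 273 and 302 FPKM at 24 h and 415, 391 and 399 FPKM at 48 h. All 48 h libraries lay above all 24 h libraries, and at 24 h the level was higher at each higher dose. The log2 values to DMSO were 0.39 (100 nM) and 0.54 (200 nM) at 24 h and -0.08 and -0.05 at 48 h. IER3 shares 359 exon bases with the antisense gene IER3-AS1, which limits the reading of its level where strand was not kept.

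IER2 (Gene ID 9592, chromosome 19, 13261282 to 13265722), a nuclear early response gene, measured 32.4, 35.1 and 35.5 FPKM at 24 h and 39.4, 34.9 and 36.3 FPKM at 48 h. Its log2 values lay between -0.17 and 0.13, and the times overlapped. It shares 946 exon bases with the antisense gene AC011446.2.

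The question behind the 4 dose comparisons was which genes respond to PCI-24781, and few of the AP-1 and early response genes met the call. A gene was called when its log2((FPKM + 1) ratio) reached 2-fold and its FPKM reached 1 in either library, and 8 of the 10 genes could be called. At 100 nM 24 h none of the 8 was called, where 1.35% of 11475 genes were called higher and 0.131% lower. At 200 nM 24 h EGR1 was called higher and none lower, against a background of 4.49% higher and 1.48% lower among 11660 genes. At 1 of 8, that count is not a result about the group. At 48 h no gene of the 8 was called at either dose, where the background was 0.0608% higher and 0.408% lower at 100 nM and 0.206% higher and 0.0600% lower at 200 nM.

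The median log2 value of the 8 genes was above 0 at 24 h and below 0 at 48 h. At 24 h it was 0.18 for 100 nM and 0.15 for 200 nM, and at 48 h it was -0.10 and -0.11 in the same order, while the median of all tested genes lay between -0.01 and 0.01. With FOS and FOSB included, the medians of the 10 genes were 0.18, 0.23, -0.03 and -0.08. Beside DMSO 48 h in place of DMSO 24 h, the medians of the 24 h libraries were -0.38 at 100 nM and -0.29 at 200 nM, values that also hold the difference between 24 h and 48 h described next. At 24 h, JUNB, EGR1, IER2 and IER3 were higher at each higher dose, as was FOS at its low level. That is 4 of the 8 genes above the filter against 32.3% of all such genes. The counting intervals of IER2 overlapped between DMSO (30.6 to 34.3) and 200 nM (33.6 to 37.5), and those of JUNB overlapped between 100 nM and 200 nM. The intervals do not separate these pairs of libraries, and overlap is not a test of a difference. For JUNB the DMSO interval (8.96 to 11.2) lay below those of 100 nM and 200 nM. FOSL1 alone was lower at each higher dose, against 30.4%. A count of this size near its background is not a result about the genes as a group.

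**Figure D3:**
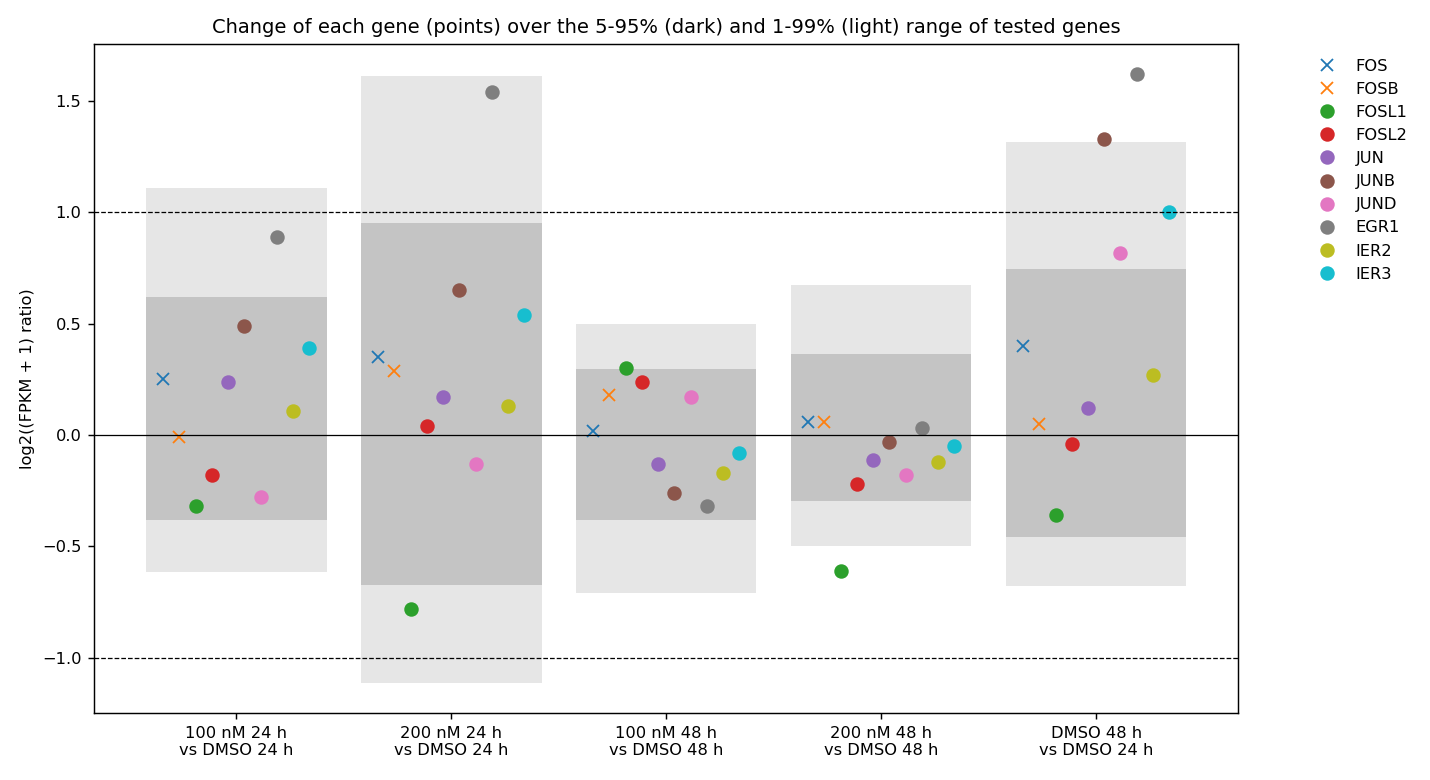
Log2((FPKM + 1) ratio) of each gene (vertical axis, points) in the 4 comparisons with DMSO of the same time and in DMSO 48 h against 24 h (horizontal axis), over the range that holds 5 to 95% (dark) and 1 to 99% (light) of all tested genes, with dashed lines at 2-fold. EGR1 passes the upper dashed line at 200 nM 24 h (1.54), EGR1 and JUNB pass it between the DMSO libraries, FOSL1 is below the light range at 200 nM 48 h (-0.61), and crosses mark FOS and FOSB, which were too low to be called.

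JUNB, JUND and IER3 differed more between the 2 DMSO libraries than between either dose and DMSO of the same time. For EGR1 the DMSO 48 h and 200 nM 24 h levels had overlapping counting intervals, so the intervals do not settle which of them lay further above DMSO 24 h. EGR1 was 6.23 times as high at DMSO 48 h as at DMSO 24 h (log2 1.62) and JUNB 2.66 times (log2 1.33), and both were called higher, which is 2 of 8 genes against 2.49% of 11490 genes. EGR1 passed the filter only through DMSO 48 h, and with an FPKM of 1 required in both libraries the count was 1, JUNB. None of the 8 was called lower, against 0.131%. IER3 had an FPKM ratio of 2.0 and a log2 value just under the threshold, JUND was higher by 0.82, and FOSL1 was at -0.36. The median of the 8 genes was 0.55, beside -0.00 for all tested genes. Only 0.418% of tested genes had a log2 value at or above that of EGR1 and 0.966% one at or above that of JUNB. With 1 library at each time, time in culture, the library itself and an exchange of labels at 48 h cannot be told apart.

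Within the treated libraries the difference with time was smaller for EGR1, JUNB and IER3. Between 48 h and 24 h, EGR1 differed by 0.42 at 100 nM and 0.11 at 200 nM, JUNB by 0.58 and 0.65, and IER3 by 0.52 and 0.40, all on the log2 scale. At 100 nM, JUND (log2 1.27) was the gene of the 8 called higher, against 0.961% higher and 0.857% lower in all genes. At 200 nM no gene of the 8 was called, against 0.748% higher and 0.179% lower. All 3 libraries of 48 h lay above all 3 of 24 h for JUNB, JUND and IER3, 3 of the 8 genes, and also for FOS at its low level, beside 11.3% of the 11893 genes that reached an FPKM of 1. No gene of the 10 had all 48 h libraries below, beside 13.2%.

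The other genes of the network were read from lists of textbook members, chosen with earlier results of these data known. A list count set beside the share of all genes is therefore a description, not a test of the list. Of 12 other AP-1 and small MAF partners, 11 or 12 could be called in each comparison and MAFK, a small MAF protein without an activation domain of its own, was the only call, higher at 200 nM 24 h, which is 1 of 12 beside 4.49% of all tested genes. MAFK measured 5.82, 8.98 and 13.9 FPKM at 24 h (log2 0.55 and 1.13) and 9.56, 9.38 and 11.01 FPKM at 48 h. At 24 h the list's median log2 values were -0.02 and -0.13, and at 48 h they were -0.02 and -0.14. ATF4, the stress response factor with the highest mean level of the list, measured 159, 150.1 and 128 FPKM at 24 h and 187, 169 and 168 FPKM at 48 h, and was not called.

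Of 26 other immediate early genes, 19 could be called, and CCN2, CCN1, NR4A2 and DUSP1 were called higher at 200 nM 24 h. That is 4 of 19, beside 4.49% of all tested genes. None was called lower there, and the median of the 19 was 0.15. CCN2, which encodes a matrix protein induced by TGF-beta and by YAP, measured 88.8, 240.3 and 353 FPKM at 24 h and 205, 80.9 and 295 FPKM at 48 h. It was called higher at 100 nM 24 h (log2 1.43), higher at 200 nM 24 h (1.98), lower at 100 nM 48 h (-1.33), not at 200 nM 48 h (0.52), and higher between the DMSO libraries (1.20). The related matrix protein gene CCN1 had the highest mean level of the list and measured 309.9, 503 and 685 FPKM at 24 h and 420.0, 274 and 466 FPKM at 48 h. The orphan nuclear receptor gene NR4A2 measured 1.10, 2.29 and 3.85 FPKM at 24 h and 3.89, 2.90 and 6.09 FPKM at 48 h. Like EGR1, NR4A2 was called higher at 200 nM 24 h (log2 1.21) and in DMSO 48 h against 24 h (1.22). DUSP1, a phosphatase that switches off MAP kinases, measured 22.0, 27.7 and 47.7 FPKM at 24 h and 29.9, 24.3 and 37.1 FPKM at 48 h. In these 4 genes, as in EGR1, the 100 nM 48 h library was below DMSO 48 h.

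No gene was called among the 22 kinases and factors that act upstream of early gene transcription (SRF, ELK and CREB family genes and MAP kinases), in any of the 5 comparisons. With 0.0600% to 4.49% of all tested genes called in a direction, a count of 0 of 22 is near the background. Their log2 values lay between -0.58 and 0.58, with medians between -0.04 and 0.07. MAP2K2, which encodes the kinase MEK2 and had the highest mean level, measured 149, 149.6 and 189 FPKM at 24 h and 175, 211 and 184 FPKM at 48 h. NAB1 and NAB2, the EGR1 corepressors, were not called either, and NAB1, the higher of the pair, lay between 11.7 and 15.6 FPKM. RNA levels of kinases do not measure their activity.

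Of 16 textbook AP-1 target genes, 12 or 13 could be called, with median log2 values of 0.28 and 0.22 at 24 h and -0.30 and 0.01 at 48 h. Calls at 24 h numbered 1 of 12 at 100 nM (1.35% of all genes) and 2 of 12 at 200 nM (4.49%), all of them higher. At 100 nM 48 h, 2 of 12 were called lower (0.408% of all genes), and between the DMSO libraries 2 of 12 were called higher (2.49%). CXCL8, a chemokine gene with an AP-1 site in its promoter, measured 11.6, 31.8 and 28.7 FPKM at 24 h and 64.0, 25.4 and 67.1 FPKM at 48 h. It was called higher at both doses at 24 h (log2 1.38 and 1.24), lower at 100 nM 48 h (-1.30) and higher between the DMSO libraries (2.37). HMOX1, the heme-degrading stress enzyme, measured 4.83, 5.31 and 10.9 FPKM at 24 h and 10.4, 8.86 and 10.1 FPKM at 48 h. It was called higher at 200 nM 24 h (log2 1.03), where its level was close to that of DMSO 48 h, and not at 48 h (-0.20 and -0.04). The collagenase gene MMP1 measured 9.44, 14.0 and 8.16 FPKM at 24 h and 14.1, 5.82 and 14.9 FPKM at 48 h, and was called lower at 100 nM 48 h (-1.14) only. IL6, the cytokine gene, measured 2.99, 4.29 and 5.68 FPKM at 24 h and 16.4, 10.4 and 21.6 FPKM at 48 h, and was called only between the DMSO libraries (log2 2.12). CCND1, the cyclin D1 gene and the most abundant of the list, measured 210.2, 262 and 299 FPKM at 24 h and 237, 192 and 261 FPKM at 48 h, and was not called. No target gene was called lower at 200 nM, beside 1.48% of all genes at 24 h and 0.0600% at 48 h, so that count is near the background.

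**Figure D4:**
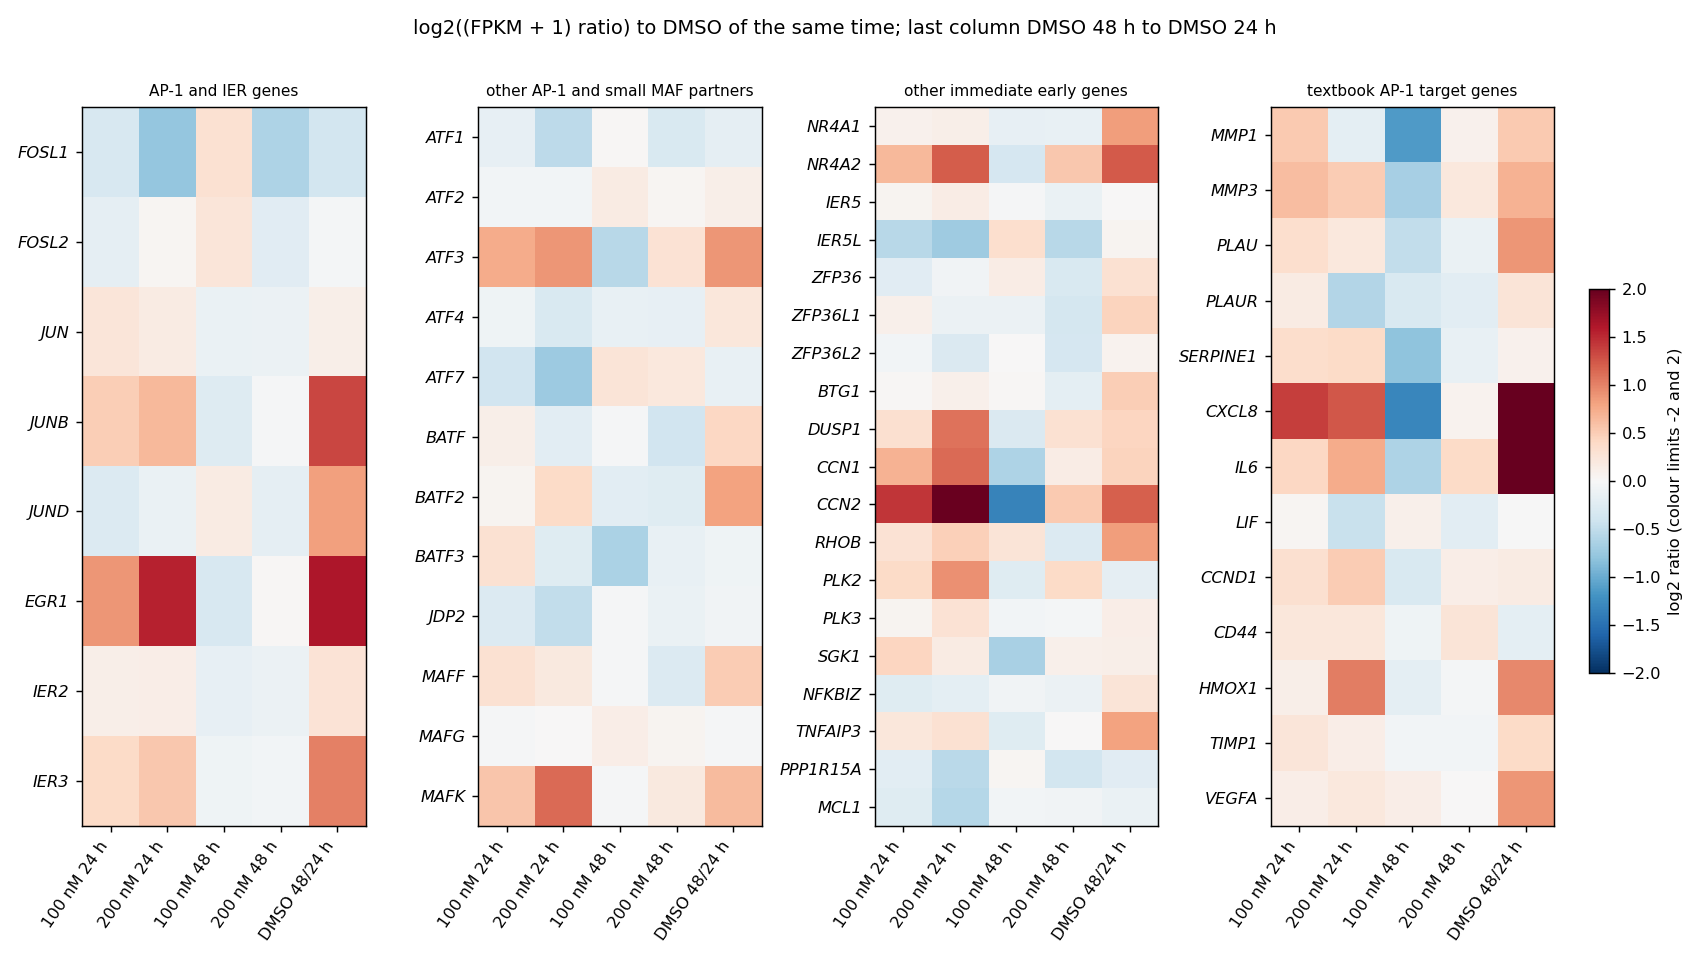
Colour maps of log2((FPKM + 1) ratio) (red above 0, blue below 0, colours limited at 2 and -2) for the genes that reached an FPKM of 1: the AP-1, EGR1 and IER genes, other AP-1 partners, other immediate early genes and textbook AP-1 targets, in the 4 comparisons with DMSO of the same time and in DMSO 48 h against 24 h. EGR1, CCN2, NR4A2 and CXCL8 are red in both 24 h columns and in the DMSO time column, and blue in the 100 nM 48 h column.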

How the data were processed

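The files deposited by the authors hold 1 FPKM value per gene and library, with 2 decimals. The submitters' processing notes name Bowtie2, RSEM and hg19, without versions or roles, and strandedness is not given in the sources used here. Genes were named by NCBI Gene ID from the RefSeq table of GRCh38.p14, which held 16585 of 16623 genes. There were 0 unused columns of sample values.

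Each PCI-24781 library was compared with DMSO of the same time, and DMSO 48 h with DMSO 24 h, as log2((FPKM + 1) ratio), which understates the change of low genes. A gene was called at 2-fold where either library reached an FPKM of 1. There were no counts and no replicates, so no test was run. The 6 samples are taken as labelled, and nothing in the labels says whether they came from separate cultures. The members and lists were chosen with earlier results of these data known. The text names all 10 members, each list gene that was called, the gene of highest mean FPKM in each list, the nearest other member, and the 3 genes nearest to the member of widest range. Some markers were added to check the cell line.

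The depth was inferred from the steps of FPKM values up to 0.25 of genes with 1 transcript of 500 to 1500 bases (GENCODE release 29), and intervals are 95% exact Poisson intervals that cover counting error only. The calls were tested on simulated data. The alternatives run were no filter, a filter of FPKM 1 in both libraries, pseudocounts of 0.1 and 0.01, TPM, median-of-ratios factors, a 1.5-fold threshold and, chosen after seeing the data, other reference libraries. A planned comparison of the Fos and Jun proteins was not done, because protein sequences were not used here. Python 3.11.15, numpy 2.4.6, pandas 2.3.3, scipy 1.17.1 and matplotlib 3.10.9 were used.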

Additional observations from a re-analysis of the deposited data

Results flagged for a closer look

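At 100 nM, the log2 value to DMSO had the opposite sign at 24 h and 48 h in all 8 genes that reached an FPKM of 1. The value at 24 h minus that at 48 h was 1.20 for EGR1, 0.74 for JUNB, 0.48 for IER3, 0.37 for JUN and 0.28 for IER2, which were above DMSO at 24 h and below it at 48 h. It was -0.62 for FOSL1, -0.45 for JUND and -0.42 for FOSL2, which were below DMSO at 24 h and above it at 48 h. Of 11336 genes, 64.3% also had opposite signs, so the pattern was shared by most of the genes in that library pair. At 200 nM, 5 of the 8 genes had opposite signs, against 29.1% of 11485 genes. The value at 24 h minus that at 48 h was 0.68 for JUNB, 0.60 for IER3, 0.28 for JUN, 0.26 for FOSL2 and 0.24 for IER2. FOSL2 at 200 nM 24 h (0.04) was below DMSO with median-of-ratios scaling (-0.03), so its opposite sign depends on the scaling. At 200 nM 48 h, JUNB (log2 -0.03) and IER3 (-0.05) were near the DMSO level. Their counting intervals and that of IER2 overlapped those of DMSO 48 h, so the count of 5 rests partly on signs that are not settled. With 1 library per condition, none of these differences was tested.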

How the results depend on the processing

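Under median-of-ratios scaling, all 50 log2 values of the 10 genes in the 5 comparisons stayed within 0.1 and kept their call, and FOSL2 at 200 nM 24 h changed sign, from 0.04 to -0.03. No call reversed under the alternatives that kept the same pair of libraries. With other reference libraries, reversal of single genes was not recorded. Beside DMSO 48 h (4.11 FPKM), EGR1 at 200 nM 24 h (3.82 FPKM) was lower, not higher. At 100 nM 24 h, EGR1 was called higher, so the count was 1 in place of 0, with pseudocounts of 0.1 and 0.01, with TPM and with a 1.5-fold threshold. Beside DMSO 48 h, 1 gene (JUND) was called lower there, with a median of -0.38. At 200 nM 24 h the count of genes called higher was 0 when both libraries had to reach an FPKM of 1, which leaves EGR1 out, and 2 at 1.5-fold, with 1 called lower. The median was 0.35 with TPM, under which FOS and FOSB also passed the filter, and it was -0.29 beside DMSO 48 h, with 0 called higher. At 200 nM 48 h, 1 gene was called lower at 1.5-fold, and the median was 0.02 beside 100 nM 48 h. Between the DMSO libraries, the median was 0.34 with no filter and 0.27 when both had to reach an FPKM of 1, with 1 called higher, and 4 were called higher at 1.5-fold. Within 100 nM the time comparison gave 1 called higher and a median of 0.40, and within 200 nM it gave 0 and 0.07. Without the DMSO libraries, 1 gene had its 48 h libraries below its 24 h libraries. No paired analysis was possible because no condition had replicates, and leaving out a replicate was not run for the same reason. Depth limited FOS and FOSB, at about 11 to 30 fragments per library.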
